A study of Mus musculus with 9 samples.

Results

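The osteoclast-derived coupling factors examined here were the 5 genes Sphk1, Pdgfb, Sema4d, Efnb2 and Ctf1, taken by gene symbol from a table of 56691 genes. All 5 were listed, and 4 of them, all but Ctf1, had enough reads to be tested. They were read in RAW264.7 cells, a macrophage line from the mouse whose cells become osteoclast-like under RANKL, the cytokine that drives osteoclast formation. The unstimulated control group (Ctrl) received neither agent, the RANKL group received RANKL, and the RANKL + UD group received RANKL together with uridine (UD). Each group held 3 libraries labelled as biological replicates, collected after 3 days of culture, and RANKL was given at 50 ng/mL in the methods for osteoclast differentiation. The UD dose of these libraries is not given in the sources used here. The cells are a tumour-derived line cultured without osteoblasts, so the values are mRNA levels on the sending side and carry no reading of secreted protein or of a response in bone-forming cells.

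Coupling factors are the products by which osteoclasts and their precursors signal to cells that build bone or form vessels. Sphk1 encodes a kinase that makes sphingosine 1-phosphate (S1P), a lipid that is exported and read by G-protein-coupled receptors on osteoblast-lineage cells. Pdgfb encodes the chain of PDGF-BB, a growth factor known to be released by osteoclast precursors and to draw mesenchymal and vessel-forming cells. Sema4d encodes a membrane semaphorin that can be shed and that restrains osteoblasts through a plexin receptor, so it is known as a brake on bone formation. Efnb2 encodes a membrane ephrin that signals in both directions when it meets its Eph receptor on a neighbouring cell. Ctf1 encodes cardiotrophin-1, a cytokine that acts through the LIF receptor and the shared gp130 chain.

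Library totals ranged from 15951800 to 19746862 counts with a median of 19182637. The 3 RANKL libraries were scaled by TMM factors of 0.958 to 0.962, against 1.01 to 1.03 for the other 6. The labelled cell type was checked with 10 osteoclast markers (Acp5, Ctsk, Mmp9, Calcr, Dcstamp, Ocstamp, Atp6v0d2, Oscar, Itgb3 and Nfatc1). Their summed level was 57.6 to 60.3 FPKM (counts divided by the exonic length and by the library total) in Ctrl, 2715 to 2920 with RANKL and 1724 to 1761 with RANKL + UD. All 10 were higher with RANKL than in Ctrl and all 10 were lower with RANKL + UD than with RANKL. The 8 macrophage markers summed to 9393 to 9983 FPKM in Ctrl, 2527 to 2770 with RANKL and 2204 to 2337 with RANKL + UD, a sum carried mostly by Lyz2 (8000, 1431 and 1285 FPKM on average). Of these 8, 7 were lower and 1, Cd68, higher with RANKL than in Ctrl, and 6 were lower and 1, Adgre1, higher with RANKL + UD than with RANKL, where the Adgre1 call was lost without RANKL 1, RANKL 3 or RANKL + UD 3 (edgeR adjusted p up to 0.117). Markers of osteoblasts and stroma summed to 0.62 to 0.99 FPKM in any library with Ibsp at 0, but within them Alpl went from 0 counts in Ctrl to 43 with RANKL and 40 with RANKL + UD (edgeR adjusted p = 8.48e-05 and 0.000115 against Ctrl). Runx2, the other tested gene of that list, was at 0.733, 0.48 and 0.427 FPKM in Ctrl, RANKL and RANKL + UD. It was lower than in Ctrl with RANKL (edgeR adjusted p = 0.0265) and with RANKL + UD (edgeR adjusted p = 0.00224). The former call was lost without Ctrl 1, Ctrl 2, RANKL 2 or RANKL 3 (edgeR adjusted p up to 0.1555). Runx2 overlaps the more abundant Supt3 on the other strand. Endothelial markers summed to 0.5 to 1.05 FPKM, and Vwf was called higher with RANKL than in Ctrl (0.743 against 0.587 FPKM, edgeR adjusted p = 0.0175) and lower with RANKL + UD than with RANKL (0.383 FPKM, edgeR adjusted p = 1.95e-05). The former call was lost without Ctrl 2 or RANKL 2 (edgeR adjusted p up to 0.124), with total counts instead of TMM and with limma on log2 FPKM. Megakaryocyte and platelet markers summed to 1.09 to 3.27 FPKM with Gp9 at 0, and Pf4 was lower with RANKL than in Ctrl (edgeR adjusted p = 0.000737). The lymphocyte markers Cd3e, Cd3g, Cd8a and Ms4a1 were at 0 in every library, while Cd79a held 17, 4 and 5 counts and Cd4 held 1, 9 and 8 counts summed over Ctrl, RANKL and RANKL + UD.

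The 5 genes lie apart in the genome and share little annotation. In the coordinates of the deposited table, whose build the table does not name, Sphk1 (ENSMUSG00000061878) spans chr11:116421751-116427501 on the plus strand, Pdgfb (ENSMUSG00000000489) chr15:79880075-79899178 on the minus strand, and Sema4d (ENSMUSG00000021451) chr13:51839565-51947783 on the minus strand. Efnb2 (ENSMUSG00000001300) spans chr8:8667434-8711242 on the minus strand and Ctf1 (ENSMUSG00000042340) chr7:127311908-127317364 on the plus strand. Their exonic lengths in the table are 4775 bases for Sphk1, 4161 for Pdgfb, 7679 for Sema4d, 6855 for Efnb2 and 1824 for Ctf1, and FPKM divides by these lengths. Comparisons of level between genes rest on them, and the lengths of the transcripts present were not examined. In the KEGG terms of the table, Sphk1 and Pdgfb share 2 pathways, calcium signaling and phospholipase D signaling. Efnb2 and Sema4d share axon guidance, and Ctf1 and Pdgfb share JAK-STAT signaling.

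Sequences at annotated starts are shown for 3 of the 4 tested genes, those with a RefSeq promoter window on GRCm38.p6. Each window runs from 250 bases before to 50 after an annotated start. RefSeq lists 5 such windows for Sphk1, 3 for Sema4d, 1 for Efnb2 and 1 for Ctf1, and the windows printed are the Sphk1 and Sema4d ones with an AP-1 motif and the Efnb2 one without it. AP-1 is the Fos and Jun dimer, a factor known to act downstream of RANKL. Capitals mark its motif, TGANTCA, searched on both strands. The printed windows are chr11:116531587-116531886 on the plus strand for Sphk1, chr13:51748761-51749060 on the minus strand for Sema4d and chr8:8661193-8661492 on the minus strand for Efnb2, all written 5′ to 3′ on the strand of the gene.
Sphk1: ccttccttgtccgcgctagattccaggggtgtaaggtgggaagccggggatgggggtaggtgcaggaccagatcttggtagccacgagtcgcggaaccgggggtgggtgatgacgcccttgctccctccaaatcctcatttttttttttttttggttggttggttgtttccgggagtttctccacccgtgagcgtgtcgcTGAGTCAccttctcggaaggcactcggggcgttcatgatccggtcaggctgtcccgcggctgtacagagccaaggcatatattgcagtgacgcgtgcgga
Sema4d: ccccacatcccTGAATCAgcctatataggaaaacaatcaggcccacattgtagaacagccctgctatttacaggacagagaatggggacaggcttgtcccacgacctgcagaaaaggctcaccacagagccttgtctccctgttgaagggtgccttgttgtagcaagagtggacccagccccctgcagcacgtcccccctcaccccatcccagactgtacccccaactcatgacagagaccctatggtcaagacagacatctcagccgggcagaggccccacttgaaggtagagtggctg
Efnb2: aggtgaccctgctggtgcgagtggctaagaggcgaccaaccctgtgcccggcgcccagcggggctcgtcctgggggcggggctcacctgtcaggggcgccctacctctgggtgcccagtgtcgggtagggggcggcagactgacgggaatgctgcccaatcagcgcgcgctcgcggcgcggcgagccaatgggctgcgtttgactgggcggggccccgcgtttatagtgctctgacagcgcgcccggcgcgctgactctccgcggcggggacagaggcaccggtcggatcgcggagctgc
The Sphk1 match, TGAGTCA, begins at position -50 from the start, and a second, overlapping Sphk1 window holds the same site at -124 from its own start. The Sema4d match, TGAATCA, begins at -239 in 1 of its 3 windows. No match lies in the Efnb2 or the Ctf1 window. Among all 32851 mouse promoter windows of this length, 7.81% hold the AP-1 motif. Counted by gene, 8.97% of 27025 genes hold it in any of their windows, a share over genes with differing numbers of windows. The core bound by NFAT factors, GGAAA, was found in 5 of 5 Sphk1 windows, 3 of 3 Sema4d windows, the Ctf1 window and not in the Efnb2 window, where 61.3% of all windows hold it. An E-box, CACGTG, lies in 2 Sphk1 windows, which overlap each other, and in 7.15% of all windows. No AP-1 match overlaps a GGAAA or CACGTG match. These matches are letters in a window and not measured binding, and their part in the changes of these genes was not tested.

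The 4 tested coupling factors were higher with RANKL than in Ctrl and lower with RANKL + UD than with RANKL. In all 4 the RANKL + UD level remained above Ctrl. By level, Sema4d and Pdgfb were the abundant members, above 10 FPKM in every library, whereas Sphk1, Efnb2 and Ctf1 stayed below 1 FPKM in every library. In RANKL against Ctrl, 4 of the 5 genes were higher at an adjusted p under 0.05 (edgeR, quasi-likelihood, Benjamini-Hochberg), where 26.2% of all 14065 tested genes were higher. In RANKL + UD against RANKL, 4 of 5 were lower, where 18.2% of all tested genes were lower. In RANKL + UD against Ctrl, 4 of 5 were higher, where 25.4% of all tested genes were. The shares are of tested genes, whereas the 5 include Ctf1, which was not tested. The members were chosen with earlier results of these data known. Sphk1 and Efnb2 passed the filter on low counts only through the stimulated libraries. The RANKL libraries enter the comparisons on both sides, with Ctrl and with RANKL + UD, so a rise in the former and a fall in the latter are not separate observations.

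Every tested member also kept its 3 RANKL libraries above its 3 Ctrl libraries and its 3 RANKL + UD libraries between them, without overlap. Among all tested genes, 28.1% had RANKL libraries wholly above Ctrl, 23.6% had RANKL + UD libraries wholly below RANKL and 28.6% had RANKL + UD libraries wholly above Ctrl. Each of these shares is for 1 pair of groups, and the share of genes with the whole order was not counted. In these bulk samples, fewer cells expressing a gene and less RNA per cell cannot be told apart. In RANKL against Ctrl and in RANKL + UD against RANKL, the 10 osteoclast markers given above moved in the same directions as the 4 genes. So did the macrophage marker Cd68 (log2 fold changes of 0.60 and -0.37, edgeR adjusted p = 4.46e-09 and 2.16e-05) and the endothelial marker Vwf. Against Ctrl, RANKL + UD was higher for Cd68 (0.24, edgeR adjusted p = 0.00135) and lower for Vwf (-0.60, edgeR adjusted p = 0.00391), a Vwf call lost with limma on log2 FPKM. The part of these markers in the results was not tested.

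**Figure D1:**
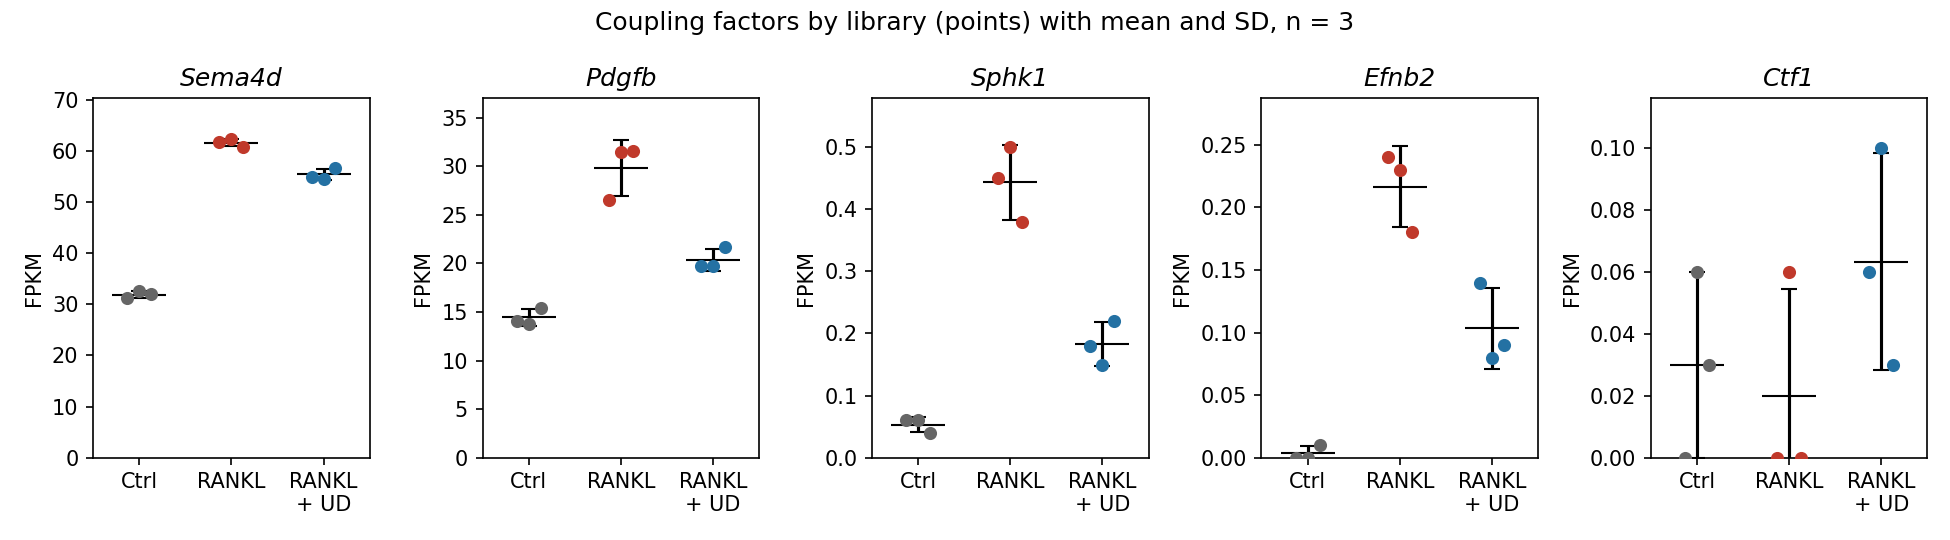
FPKM (y axes from 0, a separate scale for each gene) of the 5 coupling factors in each library of Ctrl, RANKL and RANKL + UD, with points for libraries, horizontal lines for the mean and bars for the SD (n = 3). For Sema4d, Pdgfb, Sphk1 and Efnb2 the RANKL + UD points lie between the Ctrl and RANKL points without overlap, while the Ctf1 points are at 0 to 0.1 in all groups.

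Pdgfb, the source of PDGF-BB, rose with RANKL and was lower again with UD. Its level was 14.12, 13.72 and 15.46 FPKM in the Ctrl libraries, 26.54, 31.43 and 31.57 with RANKL, and 19.72, 19.76 and 21.69 with RANKL + UD. The lowest RANKL library, replicate 1, was still above every RANKL + UD library. The means were 14.4 ± 0.911, 29.9 ± 2.87 and 20.4 ± 1.13 FPKM in that order (SD, n = 3), and the RANKL + UD mean was 68.3% of the RANKL mean. The log2 fold change was 1.14 (SE 0.0701, edgeR adjusted p = 2.13e-12) in RANKL against Ctrl and -0.64 (SE 0.0683, edgeR adjusted p = 1.45e-07) in RANKL + UD against RANKL. RANKL + UD remained above Ctrl by 0.51 on the log2 scale (SE 0.0711, edgeR adjusted p = 2.39e-06). The table lists Gm41361 on the opposite strand over Pdgfb with 31, 40 and 25 counts summed over Ctrl, RANKL and RANKL + UD, against 3143, 7224 and 4513 for Pdgfb, and whether the counting used the strand is not given in the sources used here.

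Sema4d, the semaphorin that restrains osteoblasts, had the highest level of the 5 in every library and the smallest fitted change with UD. The Ctrl libraries held 31.23, 32.58 and 31.94 FPKM, the RANKL libraries 61.78, 62.37 and 60.86, and the RANKL + UD libraries 55.02, 54.62 and 56.67. Replicates lay close together, so a small difference separated the stimulated groups without overlap. The means were 31.9 ± 0.675, 61.7 ± 0.761 and 55.4 ± 1.09 FPKM (SD, n = 3), and the RANKL + UD mean was 89.9% of the RANKL mean. RANKL raised Sema4d by 1.04 on the log2 scale (SE 0.0448, edgeR adjusted p = 2.88e-15). RANKL + UD against RANKL gave -0.24 (SE 0.044, edgeR adjusted p = 0.000163), and RANKL + UD against Ctrl gave 0.80 (SE 0.0448, edgeR adjusted p = 4.28e-13). Scaled by total counts alone, without TMM, the difference with UD was -0.15 (edgeR adjusted p = 0.00819), on a scale that moves the median of all tested genes to 0.09.

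Within a library, the FPKM ratio of Pdgfb to Sema4d compares both abundant factors free of library scaling. It was 0.452, 0.421 and 0.484 in Ctrl, 0.430, 0.504 and 0.519 with RANKL, and 0.358, 0.362 and 0.383 with RANKL + UD. The RANKL + UD libraries therefore held less Pdgfb for each unit of Sema4d than any other library. The log2 ratio was lower by 0.39 in RANKL + UD than in RANKL, with -1.44 and -1.05 as group means. A two-sided exact permutation test gave p = 0.1 for this difference, which is the smallest p that 3 libraries against 3 can reach, and 0.15 after Benjamini-Hochberg adjustment over 3 comparisons. RANKL + UD against Ctrl differed by -0.30 (exact permutation p = 0.1, adjusted 0.15), and RANKL against Ctrl by 0.10 with overlapping libraries (exact permutation p = 0.4, adjusted 0.4). The ratio was examined after the levels of both genes were known.

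**Figure D2:**
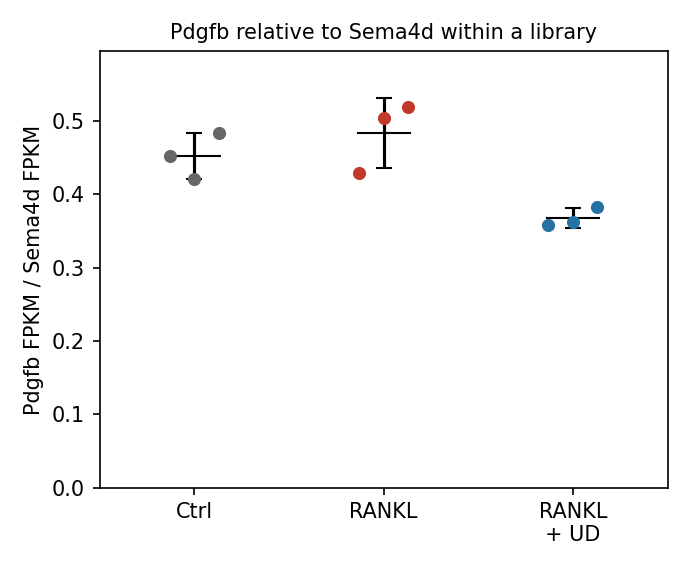
Ratio of Pdgfb FPKM to Sema4d FPKM within each library (y axis from 0), with points for libraries, horizontal lines for the mean and bars for the SD (n = 3 in Ctrl, RANKL and RANKL + UD). The 3 RANKL + UD points, 0.358 to 0.383, lie below all 6 others, while Ctrl and RANKL overlap.

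Sphk1, the S1P-producing kinase, was scarce and showed the largest proportional loss with UD among the tested members by fitted value, though the difference from Efnb2 was not tested. Its counts were 5, 6 and 3 in Ctrl, 42, 46 and 35 with RANKL, and 17, 12 and 18 with RANKL + UD, or 0.06, 0.06 and 0.04, then 0.45, 0.5 and 0.38, then 0.18, 0.15 and 0.22 FPKM. No library of a group reached the range of another. The RANKL + UD mean, 0.183 ± 0.0351 FPKM, was 41.4% of the RANKL mean of 0.443 ± 0.0603 (SD, n = 3), and the Ctrl mean was 0.0533 ± 0.0115. The log2 fold change was 3.05 (SE 0.436, edgeR adjusted p = 2.81e-06) in RANKL against Ctrl, -1.34 (SE 0.365, edgeR adjusted p = 0.00611) in RANKL + UD against RANKL, and 1.71 (SE 0.479, edgeR adjusted p = 0.00448) in RANKL + UD against Ctrl. Summed over libraries, 123 counts with RANKL stood against 14 in Ctrl, a ratio of 8.46 after scaling with an exact 95% interval of 4.86 to 15.9. The 47 counts with RANKL + UD gave a ratio to RANKL of 0.394 (0.276 to 0.556). These intervals cover counting error only.

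Efnb2, the membrane ephrin, was barely detected in unstimulated cells. Its counts were 0, 0 and 1 in Ctrl, 32, 31 and 24 with RANKL, and 19, 9 and 11 with RANKL + UD, or 0, 0 and 0.01, then 0.24, 0.23 and 0.18, then 0.14, 0.08 and 0.09 FPKM. All stimulated libraries were above all Ctrl libraries, and the highest RANKL + UD library, replicate 1, was close to the lowest RANKL library. The group means (SD, n = 3) were 0.217 ± 0.0322 FPKM with RANKL and 0.103 ± 0.0322 after UD was added, the latter 47.7% of the former. Against the single count in Ctrl, the 87 counts with RANKL gave a ratio of 83.8 with an exact 95% interval of 14.6 to 3346, and the 39 counts with RANKL + UD gave 38.8 (6.56 to 1570). The edgeR adjusted p was 6.64e-07 for RANKL against Ctrl and 5.55e-05 for RANKL + UD against Ctrl, with fitted log2 values of 5.94 and 4.82 that depend on the prior count. Without Ctrl 3, which holds the only Ctrl count, the fitted value for RANKL against Ctrl was 7.85.

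The lower Efnb2 level with UD was the least secure of the 4 calls. RANKL + UD against RANKL gave a log2 fold change of -1.12 (SE 0.431, edgeR adjusted p = 0.0477), just inside the threshold. The call was lost in 6 of the 9 fits that left out 1 library, namely those without Ctrl 1, RANKL 1, RANKL 2, RANKL 3, RANKL + UD 2 or RANKL + UD 3, where the estimates over all 9 ranged from -1.40 to -0.96 and edgeR's adjusted p from 0.0416 to 0.147. DESeq2 gave -1.14 with an adjusted p of 0.063. The estimate was below 0 in all of these fits.

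Ctf1, the gp130 cytokine, was at the limit of detection. Its counts were 0, 2 and 1 in Ctrl, 0, 2 and 0 with RANKL, and 2, 3 and 1 with RANKL + UD, or 0 to 0.1 FPKM. All libraries held 3 counts or fewer, and 3 counts correspond to 0.0833 to 0.103 FPKM for a gene of this length, so no fold change is given and a difference was not detectable at this depth. With no filter on low counts, the edgeR adjusted p was 0.902 for RANKL against Ctrl, 0.622 for RANKL + UD against RANKL and 0.743 for RANKL + UD against Ctrl. The neighbouring Ctf2, which overlaps Ctf1 on the opposite strand, held 29, 6 and 0 counts summed over Ctrl, RANKL and RANKL + UD.

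**Figure D3:**
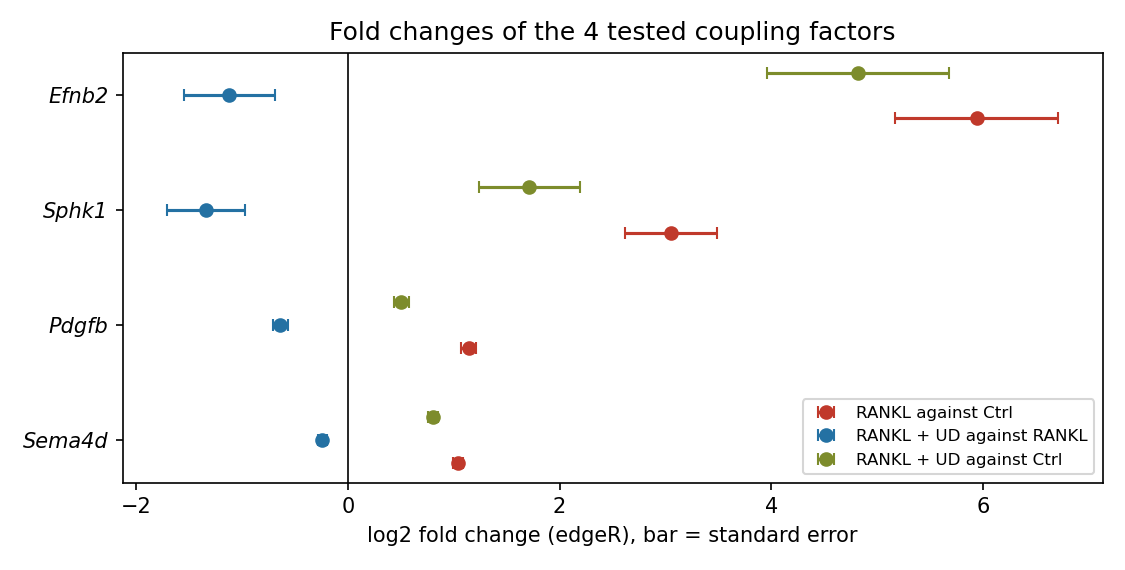
Log2 fold changes (x axis) of the 4 tested coupling factors with their standard errors (bars) from edgeR, for RANKL against Ctrl, RANKL + UD against RANKL and RANKL + UD against Ctrl, 3 libraries per group. The RANKL + UD against RANKL values lie below 0, from -1.34 for Sphk1 to -0.24 for Sema4d, and the other values lie above 0, with wide bars for Efnb2 and Sphk1, the genes with few counts.

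On the FPKM scale the order with RANKL was Sema4d, Pdgfb, Sphk1, Efnb2 and Ctf1, and no neighbours in that order overlapped. Sema4d exceeded Pdgfb by a ratio of 2.07 with RANKL, 2.21 in Ctrl and 2.72 with RANKL + UD. The step from Pdgfb to Sphk1 was the widest, with ratios of 67.3 with RANKL, 271 in Ctrl and 111 with RANKL + UD. In Ctrl the libraries of Sphk1 and Ctf1 overlapped, as did those of Ctf1 and Efnb2, and with RANKL + UD those of Efnb2 and Ctf1 overlapped.

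The genes with the most similar profile over the 9 libraries were found by the smallest root mean square difference between centred log2 CPM values, among genes with a mean of at least 1 FPKM. For Pdgfb these were Aldh3b1 (0.048), an aldehyde dehydrogenase, Prelid2 (0.075) and Grhpr (0.0756), a glyoxylate reductase, out of 11191 genes. Aldh3b1 was at 22.2 FPKM in Ctrl, 43.4 with RANKL and 30.7 with RANKL + UD. For Sema4d they were Atp6v1h (0.0486), a subunit of the vacuolar proton pump, Arl8b (0.0559), a small GTPase of lysosome transport, and P4hb (0.0559), a protein disulfide isomerase. Atp6v1h was at 9.28 FPKM in Ctrl, 17.4 with RANKL and 16.6 with RANKL + UD. For Sphk1, with its few counts, the nearest profiles were looser, with Gm29367 at 0.196, Pheta1, an endosomal adaptor, at 0.204 and Celf3, an RNA-binding protein, at 0.277. Efnb2 was nearest to Mustn1 (0.433), the lymphatic growth factor Vegfc (0.518) and the NADPH oxidase Nox1 (0.521). With 0, 0 and 1 counts in Ctrl, the Efnb2 profile there depends on the 0.5 added to each count before the log. In RANKL + UD against RANKL, Mustn1, Vegfc and Nox1 changed by -1.30, -0.43 and -1.63 on the log2 scale, against -1.12 for Efnb2.

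The partners of each factor were then read from lists of its receptors, relatives and processing enzymes. Of the 13 S1P genes, 8 were tested, of which 3 were higher and 3 lower with RANKL than in Ctrl. Their median log2 fold change was 0.04 against -0.03 for all tested genes, of which 26.2% were higher and 28.6% lower. In RANKL + UD against RANKL, 1 was higher and 4 were lower. The median was -0.30 against 0.004 for all tested genes, of which 16.6% were higher and 18.2% lower. The receptor S1pr1, which guides cell traffic along S1P, was at 10.9, 10.04 and 10.48 FPKM in Ctrl, 1.47, 1.22 and 1.54 with RANKL, and 0.55, 0.46 and 0.21 with RANKL + UD. It thus fell with RANKL, while Sphk1 rose, and with UD it fell by 1.85 on the log2 scale (SE 0.224, edgeR adjusted p = 8.01e-07). S1pr2, a receptor that opposes such migration, was at 6.03 ± 0.797, 6.69 ± 0.652 and 5.24 ± 0.397 FPKM (SD, n = 3) and was lower with RANKL + UD than with RANKL by -0.44 on the log2 scale (edgeR adjusted p = 0.000534).

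Sphk2, the related kinase, stood at a mean of 6.21 FPKM in Ctrl, 7.28 with RANKL and 6.04 with RANKL + UD, and so was more abundant than Sphk1 in each group. Its log2 fold change was 0.32 in RANKL against Ctrl (edgeR adjusted p = 0.00376) and -0.36 in RANKL + UD against RANKL (edgeR adjusted p = 0.00301). It overlaps the ribosomal protein gene Rpl18 on the other strand, so its reads are uncertain without strand. Sgpl1, the lyase that degrades S1P, changed by 0.98 (edgeR adjusted p = 9.29e-14) and -0.24 (edgeR adjusted p = 0.000517) on the log2 scale in the same 2 comparisons. The phosphatase Sgpp1, which returns S1P to sphingosine, changed by -1.09 (edgeR adjusted p = 9.33e-14) and 0.34 (edgeR adjusted p = 6.18e-05). S1pr3 and S1pr5 were at the floor of 3 counts or fewer in all libraries, and S1pr4 held 5 to 6 counts in each Ctrl library and 0 in each RANKL + UD library.

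Of the 7 PDGF genes, 4 were tested, with 0 higher and 2 lower in RANKL against Ctrl and 1 higher and 1 lower in RANKL + UD against RANKL. The median log2 fold changes were -1.28 and -0.21, against -0.03 and 0.004 for all tested genes. Among all tested genes, 26.2% were higher and 28.6% lower in RANKL against Ctrl. In RANKL + UD against RANKL, these shares were 16.6% and 18.2%. Pdgfrb, the receptor for PDGF-BB, was at 0.6, 0.83 and 1.14 FPKM in Ctrl and at 0.06 to 0.13 in all stimulated libraries, and with RANKL it fell by 2.90 on the log2 scale (SE 0.352, edgeR adjusted p = 2.58e-07). Its level with RANKL + UD, 0.0867 FPKM, was not called different from RANKL, 0.107 FPKM (edgeR adjusted p = 0.544). Pdgfra stayed at 0.03 FPKM or less. With RANKL, the co-receptor Nrp1 fell by 2.33 (SE 0.113, edgeR adjusted p = 2.74e-14). Pdgfa, the sister chain, was at 5.15, 5.36 and 6.85 FPKM in Ctrl, RANKL and RANKL + UD. Its difference between RANKL + UD and RANKL, 0.27 (SE 0.0999, edgeR adjusted p = 0.0412), was in the direction opposite to that of Pdgfb, but the call was lost without RANKL 1, RANKL 2, RANKL + UD 2 or RANKL + UD 3, with edgeR's adjusted p up to 0.143. DESeq2, RLE factors and the fit with no filter also lost it.

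Of the 13 genes around Sema4d, 10 were tested, with 4 higher and 4 lower in RANKL against Ctrl and 1 higher and 2 lower in RANKL + UD against RANKL. Their medians were -0.05 in both comparisons, against -0.03 and 0.004 for all tested genes. The shares of all tested genes were 26.2% higher and 28.6% lower with RANKL, and 16.6% higher and 18.2% lower with UD. Among receptors, Plxnb1, the plexin through which SEMA4D acts on osteoblasts, was at 0.03 FPKM or less in every library. Plxnb2 was at 77.2, 65.9 and 72.3 FPKM in Ctrl, RANKL and RANKL + UD and was not called in the comparisons (lowest edgeR adjusted p = 0.0705). Cd72, the receptor on immune cells, was at 98.8, 112 and 102 FPKM, with 0.27 (edgeR adjusted p = 3.97e-05) and -0.22 (edgeR adjusted p = 0.000878) on the log2 scale. Plxnd1, a plexin of vessel and immune cells, rose with RANKL by 1.82 (SE 0.0673, edgeR adjusted p = 1.87e-16) from 11.9 to 39.2 FPKM and was at 40.2 FPKM with RANKL + UD. Of the relatives, with RANKL Sema4a fell by 2.09 (SE 0.0787, edgeR adjusted p = 2.47e-16) and Sema4c fell by 1.29 (SE 0.174, edgeR adjusted p = 1.25e-06). Sema4g, at 0.88, 1.08 and 0.77 FPKM, was lower with RANKL + UD than with RANKL by -0.58 on the log2 scale (SE 0.141, edgeR adjusted p = 0.00269), and its difference with RANKL of 0.40 (edgeR adjusted p = 0.0197) was lost as a call without Ctrl 2, Ctrl 3 or RANKL 1 (edgeR adjusted p up to 0.0906). That call was also lost with total counts and with limma on log2 FPKM. Plxnb3 fell by 1.40 with RANKL from 0.163 FPKM (edgeR adjusted p = 0.0388), a call lost without Ctrl 1, Ctrl 3 or RANKL 1 (edgeR adjusted p up to 0.191). DESeq2, the fit with no filter and limma on log2(FPKM + 1) also lost it. Of the sheddases, Adam10 was at 55, 58.9 and 74.8 FPKM, higher with RANKL + UD than with RANKL by 0.26 (SE 0.0489, edgeR adjusted p = 0.000217), and Adam17 at 76.6, 36.5 and 37.2 FPKM.

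Few genes of the ephrin and Eph list were expressed. Of its 14 genes, 3 were tested, 7 were at the floor in every library, and Ephb1, Ephb2, Ephb3 and Ephb6 had no read in any library. Ephb4, the receptor paired with ephrin-B2, held 3, 0 and 0 counts in Ctrl, 5, 13 and 6 with RANKL, and 1, 2 and 5 with RANKL + UD, and was not tested. Efnb1 was at 0.53, 0.6 and 0.84 FPKM and was not called (edgeR adjusted p = 0.481 and 0.321). Epha2 was lower with RANKL, at 0.713 FPKM, than in Ctrl, at 1.52 FPKM (edgeR adjusted p = 8.31e-05). In RANKL + UD against RANKL, 0 of the 3 were called, where 16.6% of all tested genes were higher and 18.2% lower.

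Of the 14 gp130 genes around Ctf1, 8 were tested, with 1 higher and 5 lower in RANKL against Ctrl and 1 higher and 2 lower in RANKL + UD against RANKL. The medians were -1.06 and -0.35, against -0.03 and 0.004 for all tested genes. Of all tested genes, 26.2% were higher and 28.6% lower in the former comparison, and 16.6% and 18.2% in the latter. Lif, a related cytokine, had 4, 4 and 1 counts in Ctrl, 93, 76 and 80 with RANKL, and 59, 51 and 14 with RANKL + UD, a ratio of RANKL to Ctrl of 26.6 (exact 95% interval 13.8 to 58.9). Its pattern was thus like that of the 4 coupling factors, and RANKL + UD against RANKL gave -0.97 on the log2 scale (SE 0.332, edgeR adjusted p = 0.0268). RANKL + UD 3 was the lowest of these libraries, and the call was lost without it, without RANKL 1 or without RANKL 3, with estimates from -1.22 to -0.57 and edgeR adjusted p up to 0.137. Limma on log2(FPKM + 0.1) also lost the Lif call. Lifr, the receptor chain used by both LIF and cardiotrophin-1, had 203, 297 and 203 counts in Ctrl, 4, 1 and 0 with RANKL, and 13, 10 and 7 with RANKL + UD. It was lower with RANKL than in Ctrl (edgeR adjusted p = 6.41e-14) and higher with RANKL + UD than with RANKL (edgeR adjusted p = 0.00224), at a ratio of 6.19 from 30 and 5 summed counts (exact 95% interval 2.38 to 20.4). RANKL 1 holds 4 of those 5 counts, and the fitted log2 fold change of 2.54 became 4.04 without it. Limma on log2 FPKM did not call that difference at either pseudocount. With RANKL, Il6st, which encodes gp130, fell by 1.16 (SE 0.0508, edgeR adjusted p = 4.34e-15), from 23.5 to 9.86 FPKM, and was at 9.92 FPKM with RANKL + UD (edgeR adjusted p = 0.272 against RANKL). The receptor Il6ra fell by 1.26 with RANKL (edgeR adjusted p = 2.58e-14) and the cytokine Il27 fell by 1.43 (edgeR adjusted p = 0.00101), Il27 overlapping the more abundant Apobr on the other strand.

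**Figure D4:**
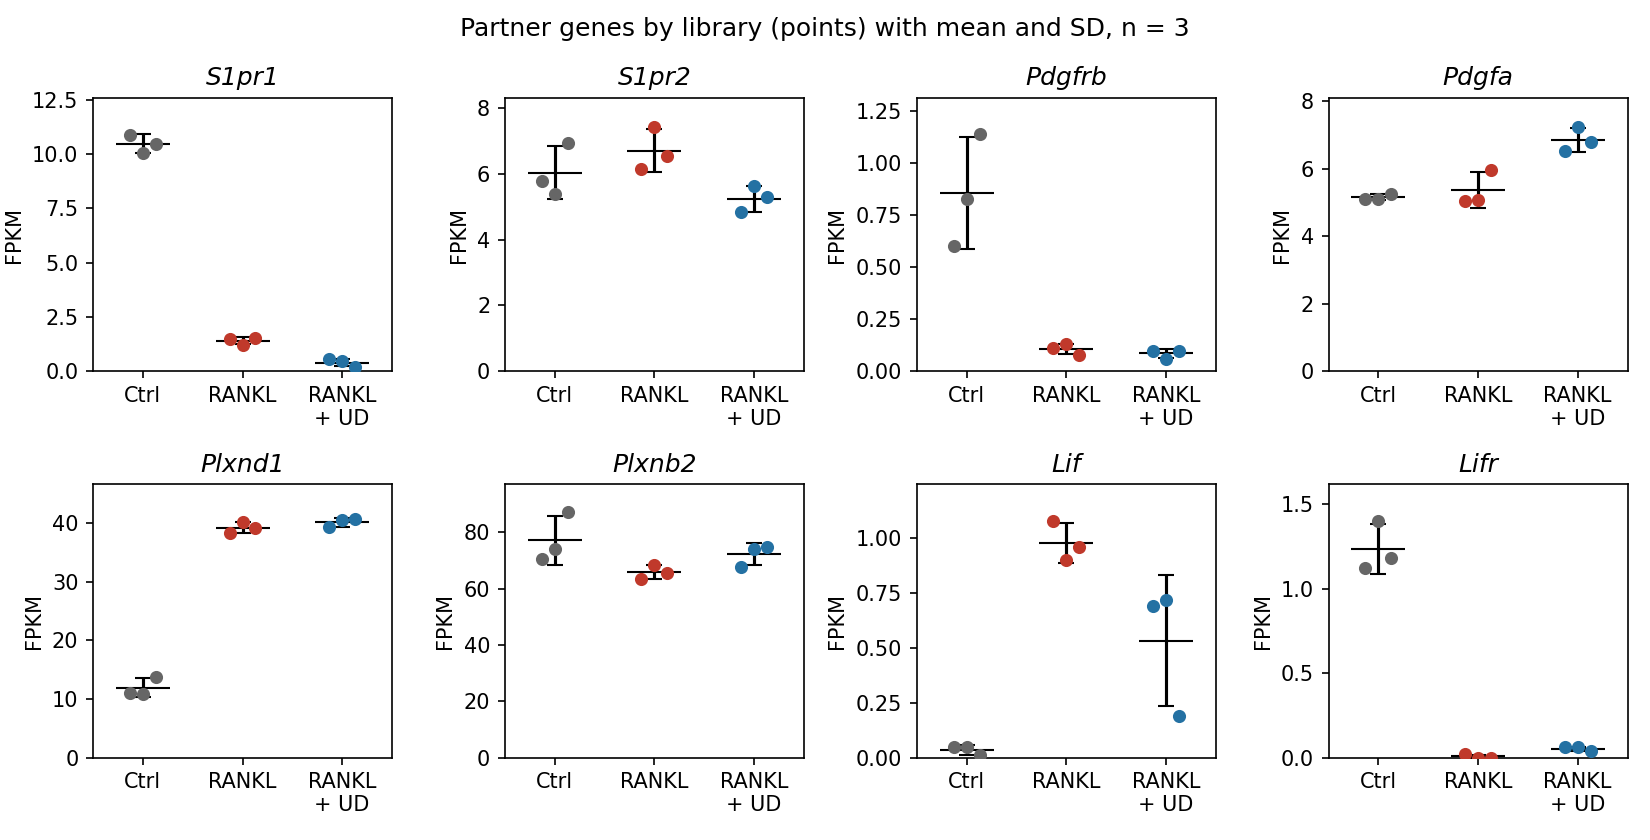
FPKM (y axes from 0, a separate scale for each gene) of 8 partner genes in each library of Ctrl, RANKL and RANKL + UD, with points for libraries, horizontal lines for the mean and bars for the SD (n = 3). S1pr1, Pdgfrb and Lifr were high in Ctrl and low in all stimulated libraries, Lif and Plxnd1 were low in Ctrl, and the group means of S1pr2 and Pdgfa lay within 5.15 to 6.85 FPKM.

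A list of 13 further factors attributed to osteoclasts in coupling held 7 tested genes, all called in RANKL against Ctrl, 3 higher and 4 lower, where 26.2% of all tested genes were higher and 28.6% lower. In RANKL + UD against RANKL, 1 was higher and 5 were lower, where 16.6% of all tested genes were higher and 18.2% lower, and the median was -0.61 against 0.004 for all tested genes. Bmp2, a bone morphogenetic protein, had 1, 1 and 0 counts in Ctrl, 16, 22 and 29 with RANKL, and 24, 9 and 10 with RANKL + UD, a ratio of RANKL to Ctrl of 32.3 (exact 95% interval 8.59 to 272, edgeR adjusted p = 1.12e-05). Its RANKL + UD libraries overlapped those of RANKL (edgeR adjusted p = 0.33). Vegfa, the vessel growth factor, was at 17.1, 28.6 and 17.6 FPKM in Ctrl, RANKL and RANKL + UD, with log2 fold changes of 0.83 (edgeR adjusted p = 8.59e-12) and -0.78 (edgeR adjusted p = 2.17e-10), and was not called between RANKL + UD and Ctrl (edgeR adjusted p = 0.512). Tnfrsf11a, which encodes the RANK receptor, changed by 0.92 (edgeR adjusted p = 3.78e-12) and -0.35 (edgeR adjusted p = 4.7e-05). With RANKL, Igf1 fell by 3.75 on the log2 scale (SE 0.0879, edgeR adjusted p = 4.35e-20) and the chemokine Cxcl16 fell by 3.11 (SE 0.0761, edgeR adjusted p = 9.29e-20), and both were lower again with UD, by -0.61 each (edgeR adjusted p = 0.000195 and 1.61e-05). The complement component C3 did the opposite with UD, at -1.90 in RANKL against Ctrl (edgeR adjusted p = 5.19e-14) and 0.72 in RANKL + UD against RANKL (edgeR adjusted p = 5.43e-06).

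**Figure D5:**
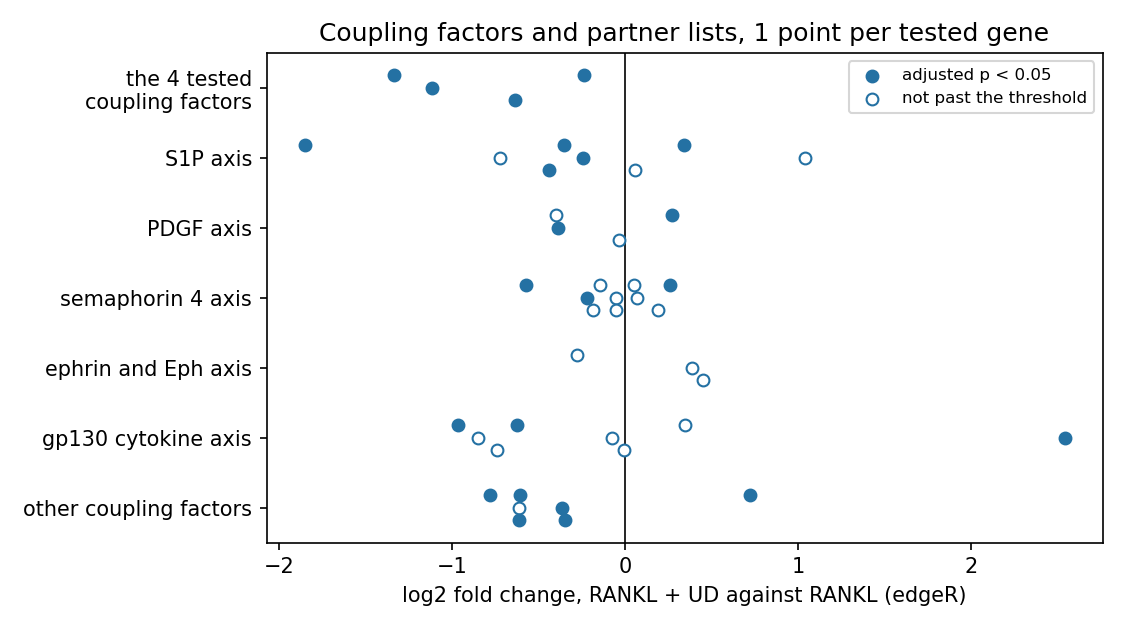
Log2 fold change (x axis) of RANKL + UD against RANKL from edgeR, 1 point for each tested gene of the coupling factors and of 6 partner lists (rows; the vertical offset within a row only separates points), filled at an adjusted p under 0.05. The 4 tested coupling factors lie between -1.34 and -0.24, while the partner lists hold points on both sides of 0, from S1pr1 at -1.85 to Lifr at 2.54.

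The scaling of the libraries bears on how many genes were called in each direction, less so on the 4 coupling factors. With TMM, 47.8% of the genes called in RANKL against Ctrl were higher (3681 higher and 4024 lower), and with total counts 37.2% (2922 and 4924), where the median of all tested genes moved from -0.03 to -0.12. In RANKL + UD against RANKL the share was 47.8% with TMM (2341 higher and 2559 lower) and 65.5% with total counts (3487 and 1838). The 4 coupling factors kept their directions under both scalings in the 3 comparisons. In RANKL + UD against RANKL, however, total counts lost the Efnb2 call (-1.035, edgeR adjusted p = 0.0629). The Sema4d value moved from -0.24 to -0.15 there and stayed called.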

How the data were processed

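RNA from 9 libraries was analysed, and all 18 value columns matched 1 library by name, the RANKL columns being named as the model group. The authors deposited counts, whole read numbers for each gene, without normalization. The FPKM values were computed by the authors from these counts, exonic lengths and library totals, and are deposited with 2 decimals. The submitters' processing notes name the build mm10, whose coordinates differ from those in the table. The aligner and counting tool are not given in the sources used here.

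Counts were tested with edgeR 4.0.16 (quasi-likelihood, TMM, filterByExpr, all 9 libraries in 1 fit, R 4.3.3) and adjusted by Benjamini-Hochberg over 14065 genes, where the study's methods name DESeq2, which was run as an alternative. Totals were 15951800 to 19746862 counts, and 3 counts or fewer in every library was treated as the floor. Intervals cover counting error only. Replicate libraries differed by 2.83 to 8.22 in chi-square per degree of freedom over 9 pairs, more than counting error alone gives. None was therefore the same library sequenced again, but separate preparations from the same culture cannot be told apart in this way. The members and lists were chosen with earlier results of these data known. Named list genes were those called that moved by at least 1 on the log2 scale with RANKL or by 1.5 times with UD, at most 4 per list, plus the known pairs of each member; Sgpl1, Sema4g, Adam10, Adam17, Vegfa and Tnfrsf11a were named after their values were seen. Alternatives were RLE factors, total counts, DESeq2 1.42.0, an FPKM filter, no filter, limma 3.58.1 on log2 FPKM with pseudocounts of 1 and 0.1, only the 6 libraries compared, a replicate block and each library left out. Scripts were tested on simulated data. Some results of single marker genes are not reported here. Promoter sequences are RefSeq's on GRCm38.p6, found for 4 of the 5 genes.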

Additional observations from a re-analysis of the deposited data

How the results depend on the processing

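Of 210 alternative values for the fold changes of the 4 tested coupling factors, 199 kept their direction and their side of the threshold, 11 lost the call and 0 changed direction. All 11 were Efnb2 in RANKL + UD against RANKL, with log2 fold changes of -1.04 with total counts, -1.14 with DESeq2, -1.12 (edgeR adjusted p = 0.0952) with no filter on low counts, -0.14 with limma on log2(FPKM + 1), and, in the 6 fits without 1 library that lost it, -1.23 to -0.96, where all 9 such fits ran from -1.40 to -0.96. With a replicate block Efnb2 was at -1.14 (edgeR adjusted p = 0.0563). Over all alternatives its adjusted p ran from 0.034 to 0.147. Libraries with the same number correlated at -0.0215 to 0.0466 in their deviations over 9 pairs. Between RANKL and RANKL + UD, same-numbered libraries gave 0.0388 to 0.044 and differently numbered ones -0.0275 to -0.0146. Between Ctrl and RANKL the signs were mixed in both kinds of pair. Such weak correlations do not settle whether the numbers pair the libraries. The block changed no other call of these genes. An FPKM of at least 1 in 3 libraries left 2 members, Pdgfb and Sema4d, tested and called in each of the 3 comparisons, because Sphk1 and Efnb2 were then not tested. The members called stayed at 4 in the fits without 1 library, and at 3 to 4 in RANKL + UD against RANKL. Over all genes, 2559 were lower in RANKL + UD against RANKL, and 1679 and 1656 with limma at pseudocounts of 1 and 0.1. Leaving out 1 library moved the genes called between 3347 and 3651 higher and 3660 and 4034 lower in RANKL against Ctrl, 1912 and 2590 higher and 2182 and 2760 lower in RANKL + UD against RANKL, and 3218 and 3628 higher and 3297 and 3738 lower in RANKL + UD against Ctrl. On the log2(FPKM + 1) scale, which understates low genes, the Sphk1 and Efnb2 folds shrank, for example to -0.29 for Sphk1 in RANKL + UD against RANKL. The Efnb2 estimate in RANKL against Ctrl ran from 5.41 to 7.85 when a library was left out, the highest without Ctrl replicate 3, which holds the only Ctrl count. Of 324 counts over the partner lists, 23 moved by more than 1.5 times, in the PDGF, ephrin and gp130 lists. Depth limits Ctf1, Efnb2 and Sphk1, which rest on 46 counts or fewer per library.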
